A study of Mus musculus with 8 samples.

Results

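The collagen chain genes are the genes whose symbol is Col, a number, the letter a and a number, named through the RefSeq accession of their array probe. The array held 44 of them among 22909 named genes, and 40 of the 44 had signal enough to be tested. They comprised 11 fibrillar chains, 9 network chains (types IV, VIII and X) and 24 other chains, namely 6 of type VI, 9 fibril-associated chains with interrupted helices (FACIT), 2 multiplexins, 4 transmembrane chains and the chains of types VII, XXVI and XXVIII. The 4 members not tested were Col10a1, Col19a1, Col28a1 and Col6a4.

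Collagens are matrix proteins built from chains that wind around each other in a helix. Types I and III form the fibrils that bear load between muscle bundles, type V takes part in starting those fibrils, and type IV builds the meshwork of basement membranes around each cardiomyocyte and vessel. In the heart most fibrillar collagen is made by fibroblasts, and the matrix is laid down rapidly after birth as the ventricle takes on its postnatal load.

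The arrays measured RNA of heart ventricle in mice homozygous for the TNNT2 ΔK210 knock-in (KI), a lysine deletion in cardiac troponin T that models inherited dilated cardiomyopathy, and in wild-type (WT) mice. The 4 groups were KI at 1 week, WT at 1 week, KI at birth (day 0) and WT at birth, with 2 arrays each and no treatment named. Each sample combined the ventricles of 3 animals, and whether paired arrays of a group hold separate pools is not stated, so errors and p-values cover the spread between arrays, which may be technical only. Strain and sex are not given in the sources used here, and the tissue is ventricle in the sample labels and left ventricle in the series text.

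The samples at 1 week are recorded in 2 ways that differ. The deposited value table and the deposited scanner files agree on the 4 birth arrays and on array A (WT replicate 1 at 1 week). Array B is KI replicate 1 in the value table and WT replicate 2 by its scanner file. Array C is KI in both, as replicate 2 in the value table and replicate 1 by its scanner file. Array D is WT replicate 2 in the value table and KI replicate 2 by its scanner file. Below, KI at 1 week means arrays B and C, and WT at 1 week means arrays A and D, as in the value table; results with KI as C and D and WT as A and B are given beside them and called the scanner-file record. The deletion of a residue is not read by these probes, so no array's genotype was checked against its signal.

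All 8 arrays lay on 1 slide and were read in 1 scan. The 1-week arrays filled slide row 2 and the birth arrays row 1, and an effect of age cannot be told apart from one of row. At birth KI filled columns 3 and 4 and WT columns 1 and 2, which likewise ties column to genotype. The share of probes well above background was 58.9% to 63.1% on an array, and precision is limited by how few arrays there are. The 75th percentile of signal was 342 on array D and 440 to 523 on the others, and the scanner software marked KI birth replicate 1 for evaluation. The summed log2 level of 7 ventricular cardiomyocyte markers lay between 11.1 and 11.3 on every array. The summed level of 5 atrial markers was 4.23 on array A, against 7.24 to 8.19 on the other 7 arrays.

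All levels below are log2 signal minus the array's 75th percentile, so that 0 is the level of a probe at that percentile; they compare arrays and not genes. Pairs of values are in the order B and C for KI at 1 week, A and D for WT at 1 week, and replicates 1 and 2 at birth. A gene is called when limma's p-value, adjusted by Benjamini-Hochberg over all genes tested in that comparison, is under 0.05.

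The comparison of 1 week with birth asked how collagen transcripts moved over the first postnatal week. In KI ventricle 12 chains rose and 3 fell, 37.5% of the 40 tested, against 10.6% of all 15744 genes tested (5.86% higher and 4.75% lower). In WT ventricle 12 chains also rose and 3 fell, 37.5% of the 40, against 19.0% of all genes (10.0% higher and 8.96% lower). The WT rises include Col4a3, which entered the test only through WT at 1 week. The median difference over the 40 chains was +0.35 in KI and +0.43 in WT, beside -0.02 and -0.04 over all genes tested. The 1-week arrays lay entirely above the birth arrays for 23 chains and entirely below for 8 in KI (28.0% and 32.1% of all genes), and for 23 and 6 in WT (29.1% and 33.6%). These shares and medians describe the members and were not tested as a set. The summed log2 level of 10 fibroblast markers was 7.55 to 7.60 in KI and 7.69 to 8.03 in WT at 1 week, against 6.72 to 6.94 in KI and 6.90 to 6.94 in WT at birth. In pooled ventricle more cells of a type and more RNA per cell cannot be told apart, and the part of fibroblast number in the collagen changes was not tested.

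The called chains were largely shared between genotypes. Col14a1, Col15a1, Col1a2, Col22a1, Col26a1, Col4a4, Col5a3, Col6a3 and Col8a1 rose in both KI and WT, and Col11a1, Col13a1 and Col23a1 fell in both. Col16a1, Col2a1 and Col5a2 passed in KI alone and Col3a1, Col4a3 and Col6a1 in WT alone, but the difference between the genotypes' changes was not called for any of the 40. With the scanner-file record 18 chains were called in KI (15 higher, 3 lower, 45% of 40, against 15.3% of all genes, 8.38% higher and 6.88% lower). In that record 15 were called in WT (12 higher, 3 lower, against 12.7% of all genes, 6.98% higher and 5.67% lower). Of the 12 shared chains 10 were called in both genotypes in both records, the exceptions being Col26a1 and Col11a1.

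These counts depended on single arrays. In KI the count was 4 without array B, 7 without array C and 5 without KI birth replicate 2. In WT it was 6 without WT birth replicate 1 and 7 without WT birth replicate 2. Backgrounds shrank too, to between 3.56% and 7.97% of all genes in those fits. With any 1 array left out, Col11a1, Col23a1, Col4a4 and Col8a1 kept their call in KI, and Col11a1, Col15a1, Col1a2, Col5a3 and Col8a1 kept it in WT.

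**Figure D1:**
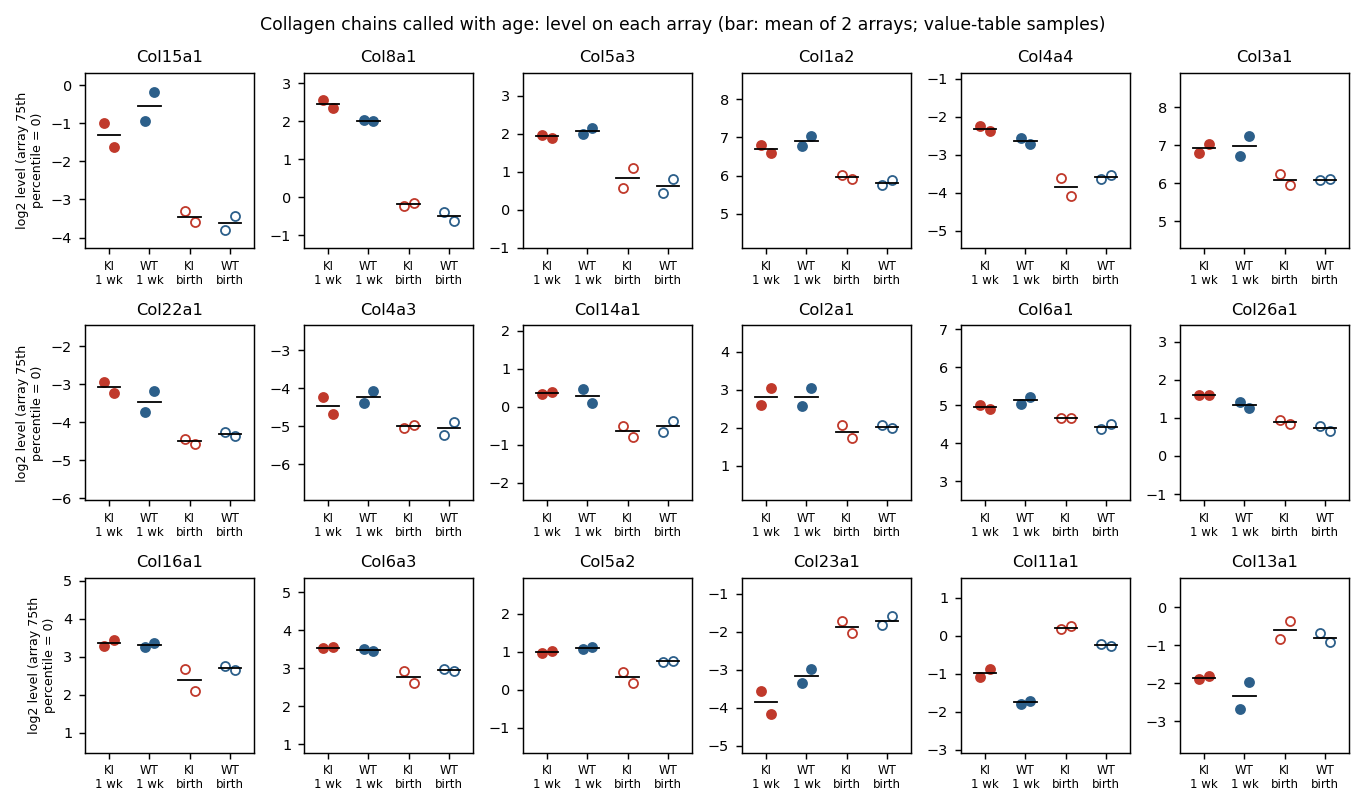
Log2 level relative to the array's 75th percentile (y axis, 4.6 units tall in every panel) on each array for the 18 chains called with age in either genotype. Points are arrays, red for KI and blue for WT, filled at 1 week and open at birth, and bars are the mean of 2 arrays; Col8a1 and Col15a1 show the widest gaps between the ages and Col23a1, Col11a1 and Col13a1 lie lower at 1 week.

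Promoter sequences are shown for 6 of these chains: Col8a1 and Col15a1, which had the largest rises, Col1a2, the type I chain that rose in both genotypes, and the 3 chains that fell. Each line gives the 250 bases before the RefSeq transcript start on GRCm38.p6, 5′ to 3′ on the gene's strand. Capitals mark matches on either strand to the CCAAT box, spelled as its name, to the GC box, spelled GGGCGG, and to the TATA box, spelled TATAAA. The AP-1 element, spelled TGANTCA, was searched too and had no match here. The windows lie at chr16:57754738-57754987 (minus strand) for Col8a1, chr4:47207762-47208011 (plus) for Col15a1, chr6:4505368-4505617 (plus) for Col1a2, chr3:114030290-114030539 (plus) for Col11a1, chr10:61979109-61979358 (minus) for Col13a1 and chr11:51289670-51289919 (plus) for Col23a1.
Col8a1: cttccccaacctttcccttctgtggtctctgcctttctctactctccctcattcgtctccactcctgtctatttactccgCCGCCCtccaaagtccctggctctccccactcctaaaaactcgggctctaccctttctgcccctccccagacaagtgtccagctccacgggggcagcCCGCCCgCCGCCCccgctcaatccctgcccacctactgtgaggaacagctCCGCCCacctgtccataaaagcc
Col15a1: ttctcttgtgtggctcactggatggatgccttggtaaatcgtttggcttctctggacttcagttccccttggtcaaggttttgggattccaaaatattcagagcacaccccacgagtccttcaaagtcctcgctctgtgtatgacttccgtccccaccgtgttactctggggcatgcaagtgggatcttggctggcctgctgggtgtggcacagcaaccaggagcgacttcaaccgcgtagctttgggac
Col1a2: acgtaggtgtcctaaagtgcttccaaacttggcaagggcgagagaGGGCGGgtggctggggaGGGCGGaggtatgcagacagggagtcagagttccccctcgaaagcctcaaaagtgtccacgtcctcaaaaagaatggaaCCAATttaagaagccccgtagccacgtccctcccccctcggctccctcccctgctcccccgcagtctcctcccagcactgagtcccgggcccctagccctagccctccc
Col11a1: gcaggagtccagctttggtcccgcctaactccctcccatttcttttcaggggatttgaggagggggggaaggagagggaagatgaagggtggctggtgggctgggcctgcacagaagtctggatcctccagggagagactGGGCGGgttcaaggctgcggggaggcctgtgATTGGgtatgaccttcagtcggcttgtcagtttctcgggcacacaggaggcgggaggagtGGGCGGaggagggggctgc
Col13a1: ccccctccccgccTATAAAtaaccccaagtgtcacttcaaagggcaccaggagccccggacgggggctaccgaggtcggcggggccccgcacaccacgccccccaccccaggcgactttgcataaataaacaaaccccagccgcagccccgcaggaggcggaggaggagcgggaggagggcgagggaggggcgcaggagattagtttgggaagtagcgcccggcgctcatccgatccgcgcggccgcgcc
Col23a1: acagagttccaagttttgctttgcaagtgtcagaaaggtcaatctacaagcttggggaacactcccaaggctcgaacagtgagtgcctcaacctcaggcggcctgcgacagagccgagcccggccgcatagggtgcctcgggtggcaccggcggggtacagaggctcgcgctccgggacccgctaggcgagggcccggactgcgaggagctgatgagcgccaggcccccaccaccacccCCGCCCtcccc
Col8a1 held GGGCGG 4 times on the reverse strand, and Col15a1 held none of the searched letters. The rising Col1a2 and the falling Col11a1 both held CCAAT and 2 copies of GGGCGG. Among the falling transmembrane chains, Col13a1 held TATAAA and Col23a1 held GGGCGG. No match overlapped another. Over 38 windows of 35 collagen chains GGGCGG stood in 57.9%, against 32.7% of 32851 windows of all genes; the median GC content was 59.0% against 52.4%. CCAAT stood in 34.2% against 33.8%, TATAAA in 13.2% against 12.4%, and TGANTCA in 2.63% against 6.75%. A match describes these letters only. Col1a1 is among the 9 members with no window in the table.

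Among fibrillar chains 4 of 11 rose and 1 fell in KI, and 3 rose and 1 fell in WT. Beside these and the class counts below, 5.86% of all genes rose and 4.75% fell in KI, and 10.0% and 8.96% in WT. In the scanner-file record 7 fibrillar chains rose and 1 fell in KI, and 4 rose and none fell in WT. The shares of all genes there were 8.38% and 6.88% in KI and 6.98% and 5.67% in WT. In the value-table record the median difference of the 11 fibrillar chains was +0.59 in KI and +0.50 in WT. Col1a2 encodes the α2 chain of type I collagen, the main fibril of the heart. Its level was 6.80 and 6.60 in KI at 1 week, against 6.02 and 5.91 in KI at birth. It was 6.78 and 7.03 in WT at 1 week, against 5.75 and 5.87 in WT at birth. The ages did not overlap in either genotype, and Col1a2 rose by 0.74 ± 0.15 in KI (limma standard error, adjusted p = 0.0228) and by 1.09 ± 0.15 in WT (adjusted p = 0.00458).

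Col1a1, the α1 chain of the same fibril, moved less on these arrays. It was at 6.09 and 6.42 in KI at 1 week, against 5.91 and 5.62 in KI at birth, and at 5.97 and 6.45 in WT at 1 week, against 5.72 and 5.71 in WT at birth. All 1-week arrays lay above all birth arrays of their genotype, with differences of +0.49 ± 0.21 in KI (limma adjusted p = 0.192) and +0.50 ± 0.21 in WT (adjusted p = 0.128), neither of which was called. A second Col1a1 probe gave +0.54 and +0.55. In the scanner-file record the KI difference was +0.67 and passed, with an adjusted p of 0.0216, whereas the WT difference was +0.32 and did not.

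Col3a1, which forms the more compliant type III fibrils, stood at 6.80 and 7.04 in KI at 1 week, against 6.24 and 5.94 in KI at birth. It stood at 6.71 and 7.24 in WT at 1 week, against 6.07 and 6.11 in WT at birth. The rise of 0.89 ± 0.21 passed in WT (limma adjusted p = 0.0283), and the KI value of +0.83 ± 0.21 lay just past the threshold (adjusted p = 0.0501). In the scanner-file record both passed, at +1.05 in KI and +0.67 in WT.

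The 3 type V chains, which control fibril width, differed among themselves. Col5a3 was at 1.98 and 1.89 in KI at 1 week, against 0.56 and 1.09 in KI at birth. WT arrays gave 2.00 and 2.15 at 1 week, against 0.44 and 0.81 at birth. It was the fibrillar chain with the largest rise, by 1.11 ± 0.21 in KI and 1.45 ± 0.21 in WT, or 2.15-fold and 2.73-fold (limma adjusted p = 0.0197 and 0.00598).

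Col5a2 was at 0.97 and 1.03 in KI at 1 week, against 0.47 and 0.19 in KI at birth, and at 1.09 and 1.11 in WT at 1 week, against 0.74 and 0.75 in WT at birth. The KI rise of 0.67 ± 0.13 was called (limma adjusted p = 0.0235) and the WT difference of +0.35 ± 0.13 was not (adjusted p = 0.107). Col5a1 was at 4.67 and 4.55 in KI at 1 week, against 4.48 and 4.19 in KI at birth, and at 4.67 and 4.58 in WT at 1 week, against 4.48 and 4.45 in WT at birth. Its differences of +0.28 ± 0.14 and +0.16 ± 0.14 were not called, and with arrays scaled to their median the WT value was -0.00.

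Col11a1, the type XI chain that joins fetal and cartilage fibrils, was the fibrillar chain that fell. It was at -1.10 and -0.88 in KI at 1 week, against 0.17 and 0.25 in KI at birth. The WT values were -1.80 and -1.71 at 1 week, against -0.22 and -0.27 at birth. The arrays of all 4 groups were apart from each other, with the fall at -1.20 ± 0.13 in KI (limma adjusted p = 0.00295) and -1.51 ± 0.13 in WT (adjusted p = 0.00113). A second probe, above background on 5 of 8 arrays, gave -1.48 and -1.42. In the scanner-file record the fall was -1.50 in KI and was called, whereas the WT value of -1.21 had an adjusted p of 0.0532.

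Col2a1, best known as the fibril chain of cartilage, was at 2.60 and 3.04 in KI at 1 week, against 2.07 and 1.73 in KI at birth, and at 2.57 and 3.05 in WT at 1 week, against 2.06 and 2.00 in WT at birth. Its rise of 0.92 ± 0.23 was called in KI (limma adjusted p = 0.0476), and that call held under only 6 of 18 alternative settings. The WT value was +0.78 ± 0.23 (limma adjusted p = 0.0546). In the scanner-file record the WT value became +0.55 and was called (adjusted p = 0.0491). Of 7 tested cartilage and valve markers, Acan, a cartilage proteoglycan, rose by 1.52 ± 0.26 in KI and by 1.08 ± 0.26 in WT (limma adjusted p = 0.0136 and 0.0307), and the transcription factor Sox9 rose by 1.27 ± 0.29 in WT (adjusted p = 0.0272) with +0.52 ± 0.29 in KI (adjusted p = 0.321). The median of the list was +0.09 in KI and -0.10 in WT, Matn1 and Matn3 were below background on all arrays, and the summed level of the 9 markers on the array was 2.08 to 2.49 at 1 week and 2.13 to 2.68 at birth. The part of these markers' cells in the Col2a1 rise was not tested. Col24a1 had -2.81 and -2.52 in KI at 1 week, against -3.28 and -3.23 in KI at birth, and -2.98 and -2.05 in WT at 1 week, against -2.89 and -2.78 in WT at birth. In KI it was called in the scanner-file record (+0.97, limma adjusted p = 0.0159) and not in the value-table record (+0.59, adjusted p = 0.251), and its WT arrays overlapped between the ages. Col11a2 and Col27a1 had differences between +0.08 and +0.56 that were not called.

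At 1 week the levels of Col1a1, Col3a1, Col2a1, Col24a1 and Col27a1 each ran in the order A, B, C, D, with C and D above A and B. These were 5 of the 11 fibrillar chains, and 1 had C and D below A and B, beside 20.2% and 19.9% of all genes. Col1a2 was at 6.78, 6.80, 6.60 and 7.03 on A to D, and Col5a1 at 4.67, 4.67, 4.55 and 4.58. Arrays C and D are the KI arrays of the scanner-file record and lie in slide columns 3 and 4; what part the slide position has in this was not tested.

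Of the 8 network chains tested, 2 rose in KI and 3 in WT, and none was called lower in the value-table record. In the scanner-file record 3 rose in KI, and 2 rose and 1 fell in WT. The WT rises of the value-table record include Col4a3, whose limits are given below. Col8a1 encodes a short-chain network collagen of vessel walls and remodelling heart. It was at 2.55 and 2.36 in KI at 1 week, against -0.22 and -0.15 in KI at birth. WT ventricle had 2.02 and 2.02 at 1 week, against -0.38 and -0.62 at birth. No array of one age came within 2 log2 units of the other. The rise was 6.23-fold in KI (log2 +2.64 ± 0.14, limma adjusted p = 0.000358) and 5.73-fold in WT (+2.52 ± 0.14, adjusted p = 0.000366), and it was called under all 18 alternative settings in both genotypes.

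Col8a2, its partner chain, was at -1.55 and -0.94 in KI at 1 week, against -2.31 and -2.24 in KI at birth, and at -2.16 and -1.49 in WT at 1 week, against -2.48 and -2.75 in WT at birth. The differences of +1.03 ± 0.28 and +0.79 ± 0.28 had limma adjusted p-values of 0.0620 and 0.0878. In the scanner-file record the KI value of +1.06 was called (adjusted p = 0.0395).

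The type IV chains split. Col4a1 and Col4a2, the common basement membrane chains, lay at 5.50 to 5.61 and 5.07 to 5.17 in KI at 1 week, against 5.12 to 5.32 and 4.67 to 4.82 in KI at birth. In WT they lay at 5.56 to 5.79 and 5.01 to 5.34 at 1 week, against 5.04 to 5.28 and 4.71 to 4.83 at birth. All 4 differences were positive, from +0.34 to +0.52, without overlap between the ages, and none was called (limma adjusted p from 0.0578 to 0.227).

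Col4a4, a chain of the specialised basement membrane of kidney and ear, was at -2.24 and -2.39 in KI at 1 week, against -3.61 and -4.08 in KI at birth. In WT hearts it stood at -2.57 and -2.71 at 1 week, against -3.65 and -3.53 at birth. It rose by 1.53 ± 0.18 in KI and by 0.95 ± 0.18 in WT (limma adjusted p = 0.00364 and 0.0141). Its partner Col4a3 was not well above background on the birth arrays of either genotype, where it measured -5.03 and -4.97 in KI and -5.23 and -4.87 in WT. At 1 week it was at -4.23 and -4.68 in KI, where array C was not well above background either, and at -4.38 and -4.06 in WT. Col4a3 entered the test only through WT at 1 week, so the filter itself favoured a rise in WT. The WT difference of +0.83 was called (limma adjusted p = 0.0359), and that call held under 7 of 17 alternative settings. With each birth array set no lower than its lowest signal above background, the WT difference was 1.54-fold. That fold makes no allowance for the spread between arrays. The KI value was not called (limma adjusted p = 0.156), and in the scanner-file record neither was.

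Col4a5 and Col4a6, which pair in another type IV network, had negative differences. Col4a6 was at -1.32 and -1.16 in KI at 1 week, against 0.04 and -0.31 in KI at birth. WT arrays gave -1.72 and -0.50 at 1 week, against -0.03 and 0.01 at birth. The differences were -1.11 ± 0.36 and -1.10 ± 0.36 (limma adjusted p = 0.107 and 0.0740); in the scanner-file record the WT value was -1.51 and was called (adjusted p = 0.0140). Array A was lowest and array D highest of the 1-week arrays for Col4a6, and the summed atrial markers were 4.23 on A and 8.19 on D; their part in this was not tested.

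Col4a5 was at 2.05 and 2.09 in KI at 1 week, against 2.33 and 2.18 in KI at birth, and at 2.03 and 1.74 in WT at 1 week, against 2.42 and 2.31 in WT at birth. Neither -0.19 ± 0.15 in KI nor -0.48 ± 0.15 in WT was called. Its second probe, well above background on all 8 arrays, was at -0.80 and -0.63 in KI at 1 week, against -0.70 and -1.13 in KI at birth. In WT it was at -1.14 and -3.86 at 1 week, against -0.66 and -0.56 at birth. It gave +0.20 in KI and -1.89 in WT, and the WT value rests largely on array D.

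**Figure D2:**
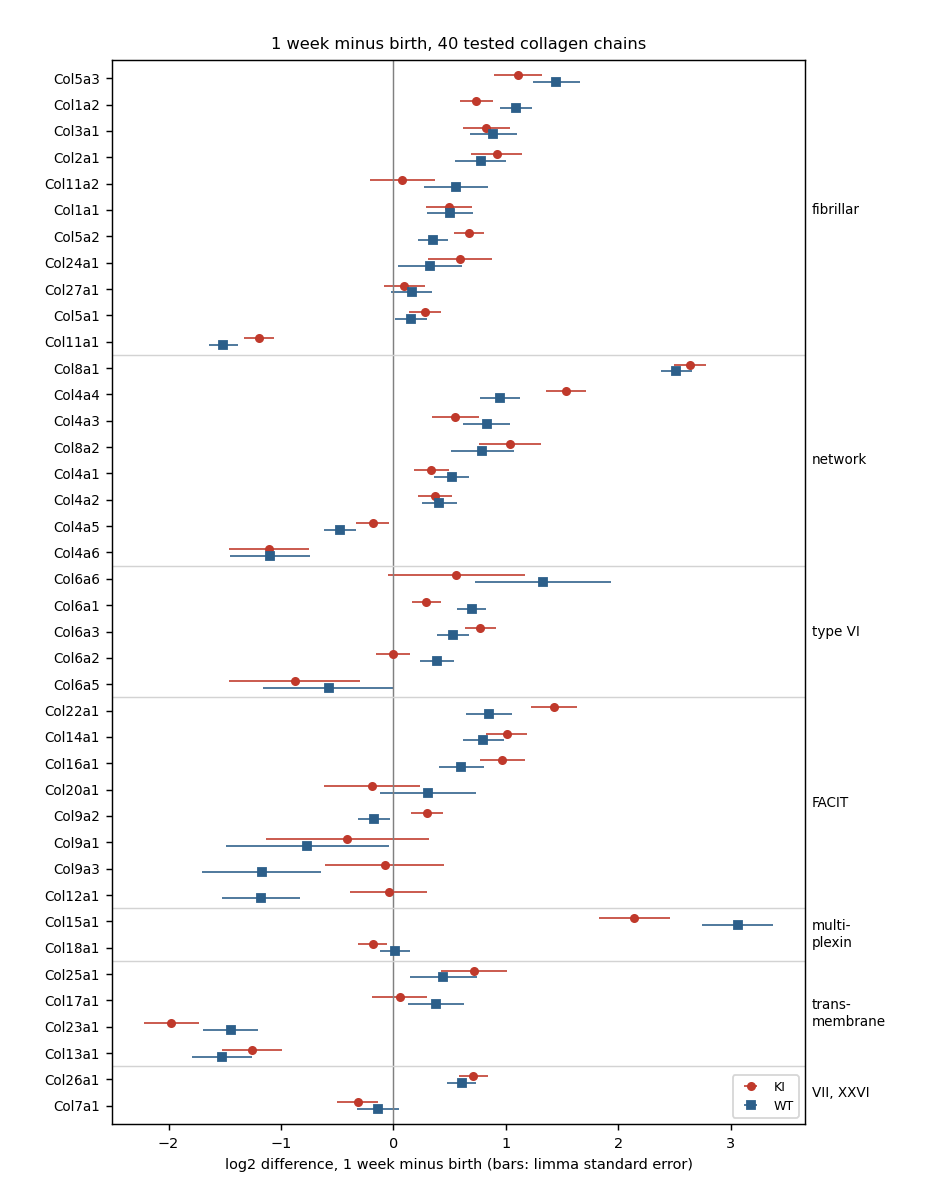
Log2 difference, 1 week minus birth (x axis), for the 40 tested chains in KI (red circles) and WT (blue squares), grouped by collagen class and ordered within a class by the WT value; bars are limma standard errors. Most points lie right of 0, with Col8a1 and Col15a1 farthest right and Col11a1, Col13a1 and Col23a1 on the left in both genotypes.

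Type VI collagen forms beaded filaments around cells. In KI 1 of its 5 tested chains rose and in WT 2 did, in either record. Col6a3 was at 3.53 and 3.55 in KI at 1 week, against 2.93 and 2.61 in KI at birth, and at 3.51 and 3.45 in WT at 1 week, against 2.97 and 2.93 in WT at birth. It rose by 0.77 ± 0.14 in KI and 0.53 ± 0.14 in WT (limma adjusted p = 0.0172 and 0.0412), and its second probe gave +1.00 and +1.40.

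Col6a1 was at 5.01 and 4.90 in KI at 1 week, against 4.66 and 4.66 in KI at birth, and at 5.03 and 5.22 in WT at 1 week, against 4.37 and 4.49 in WT at birth. The WT rise of 0.70 ± 0.13 was called (limma adjusted p = 0.0132) and the KI value of +0.29 ± 0.13 was not (adjusted p = 0.213). Col6a2, which assembles with it, was at 2.88 and 2.67 in KI at 1 week, against 2.70 and 2.86 in KI at birth, and at 2.95 and 2.73 in WT at 1 week, against 2.36 and 2.55 in WT at birth. KI arrays overlapped between the ages (-0.00 ± 0.15) and WT arrays did not (+0.39 ± 0.15, limma adjusted p = 0.118). Col6a5 and Col6a6 were above background on only 2 and 5 arrays. Col6a5 entered the test only through KI at birth, so the filter itself favoured a fall in KI. Col6a5 had a difference of -0.88 ± 0.58 in KI, where its level was -5.41 and -5.05 at 1 week, against -4.46 and -4.25 at birth, and in WT it ran from -6.94 to -4.92 with the ages overlapping.

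The FACIT chains sit on fibril surfaces. In KI 3 of 8 rose and in WT 2 did, in either record. Col14a1, which regulates fibril growth, was at 0.35 and 0.38 in KI at 1 week, against -0.50 and -0.79 in KI at birth, and at 0.46 and 0.11 in WT at 1 week, against -0.65 and -0.37 in WT at birth. It rose by 1.01 ± 0.18 in KI and 0.80 ± 0.18 in WT (limma adjusted p = 0.0167 and 0.0262).

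Col22a1, a chain of muscle and tissue junctions, was at -2.93 and -3.23 in KI at 1 week, against -4.44 and -4.58 in KI at birth, and at -3.74 and -3.18 in WT at 1 week, against -4.25 and -4.37 in WT at birth. It rose by 1.43 ± 0.21 in KI and 0.85 ± 0.21 in WT (limma adjusted p = 0.00752 and 0.0322), whereas its second probe, above background on 1 array, gave -0.00 and +0.99. The WT call held under 7 of 18 alternative settings and the KI call under 14, and neither held with the alternative background correction. Col16a1 rose in KI by 0.97 ± 0.20 (limma adjusted p = 0.0251), with +0.60 ± 0.20 in WT (adjusted p = 0.0747). Its levels were 3.28 and 3.45 in KI at 1 week, against 2.68 and 2.11 in KI at birth. In WT they were 3.27 and 3.35 at 1 week, against 2.76 and 2.65 at birth. A second Col16a1 probe, above background on 4 arrays, gave +0.35 in KI and +1.08 in WT. With the mean of all probes of a gene, Col16a1 was called in WT and not in KI.

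Col12a1, found in dense tissue and stressed fibrils, was at -1.75 and -0.83 in KI at 1 week, against -0.98 and -1.51 in KI at birth, where the ages overlapped. The WT values were -2.18 and -1.69 at 1 week, against -0.59 and -0.93 at birth, without overlap. The differences were -0.04 ± 0.34 in KI and -1.18 ± 0.34 in WT (limma adjusted p = 0.955 and 0.0550), and a second probe, above background on 6 arrays, gave -0.05 and +0.15. The type IX chains, which coat cartilage fibrils, had differences between -0.41 and +0.30 in KI and between -1.17 and -0.17 in WT, none called.

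The multiplexins are basement membrane collagens that carry proteoglycan chains. Col15a1, of capillary and muscle basement membrane, was at -0.99 and -1.63 in KI at 1 week, against -3.31 and -3.59 in KI at birth. WT ventricle had -0.94 and -0.16 at 1 week, against -3.80 and -3.44 at birth. Every 1-week array was far above every birth array, with a rise of 4.41-fold in KI (log2 +2.14 ± 0.32, limma adjusted p = 0.00798) and 8.37-fold in WT (+3.06 ± 0.32, adjusted p = 0.00196). A second probe, above background on all 8 arrays, gave +2.01 in KI and +1.77 in WT. Col18a1, the source of the endostatin fragment, was at 3.38 and 3.64 in KI at 1 week, against 3.68 and 3.71 in KI at birth, and at 3.92 and 4.02 in WT at 1 week, against 3.96 and 3.94 in WT at birth. Its differences of -0.19 ± 0.13 and +0.02 ± 0.13 were not called.

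Of the 4 transmembrane chains, which stay on the cell surface until shed, 2 fell in both genotypes and none rose, in either record. Col23a1 was at -3.54 and -4.15 in KI at 1 week, against -1.71 and -2.03 in KI at birth. In WT hearts it stood at -3.35 and -2.97 at 1 week, against -1.83 and -1.59 at birth. It fell by 1.98 ± 0.24 in KI and by 1.45 ± 0.24 in WT (limma adjusted p = 0.00440 and 0.00970), and a second probe, above background on all 8 arrays, gave -1.78 in KI and -1.24 in WT. The remaining probe was above background on none.

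Col13a1, known at neuromuscular junctions and other adhesion sites, was at -1.89 and -1.81 in KI at 1 week, against -0.83 and -0.35 in KI at birth. In WT it was at -2.69 and -1.96 at 1 week, against -0.68 and -0.92 at birth. It fell by 1.26 ± 0.27 in KI and 1.52 ± 0.27 in WT (limma adjusted p = 0.0282 and 0.0107). Col17a1, of epithelial hemidesmosomes, and Col25a1 had differences between +0.05 and +0.72 that were not called.

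Among the remaining chains, Col26a1 was at 1.59 and 1.60 in KI at 1 week, against 0.93 and 0.84 in KI at birth, and at 1.43 and 1.25 in WT at 1 week, against 0.80 and 0.67 in WT at birth. It rose by 0.71 ± 0.13 in KI and 0.61 ± 0.13 in WT (limma adjusted p = 0.0167 and 0.0208); in the scanner-file record the KI value of +0.54 was not called (adjusted p = 0.0612). Col7a1, the anchoring fibril chain, had -0.47 and -0.52 in KI at 1 week, against -0.27 and -0.09 in KI at birth, and -0.66 and -0.26 in WT at 1 week, against -0.15 and -0.49 in WT at birth, and was not called.

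Several chains are encoded side by side, with no other protein-coding gene between them in GRCm38.p6. Col4a1 and Col4a2 start 21 bases apart on opposite strands of chromosome 8, and their changes with age were +0.34 and +0.37 in KI and +0.52 and +0.41 in WT. Col4a4 and Col4a3 on chromosome 1 had +1.53 and +0.55 in KI and +0.95 and +0.83 in WT. Col3a1 and Col5a2, also on chromosome 1, had +0.83 and +0.67 in KI and +0.89 and +0.35 in WT. Col6a2 and Col6a1 on chromosome 10 had -0.00 and +0.29 in KI and +0.39 and +0.70 in WT, and the X-linked Col4a6 and Col4a5, whose starts lie 1343 bases apart, had -1.11 and -0.19 in KI and -1.10 and -0.48 in WT. Col6a6 and Col6a5 on chromosome 9 went opposite ways, with +0.56 and -0.88 in KI and +1.33 and -0.58 in WT, none called. They were above background on only 5 and 2 arrays, and Col6a5 was above background on no WT array. Col6a6 entered the test only through WT at 1 week and Col6a5 only through KI at birth. The filter itself thus favoured a rise of Col6a6 in WT and a fall of Col6a5 in KI.

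Genes that process collagen outside the cell moved with age too. Of 12 tested genes for propeptide removal and cross-linking 3 rose in KI and 7 in WT, with none lower. Over all genes 5.86% rose in KI and 10.0% in WT. In the scanner-file record 4 of these genes rose in KI and 5 in WT, beside 8.38% and 6.98% of all genes. The list was not tested as a set. Pcolce2, an enhancer of propeptide cleavage, was at 0.99 and 0.63 in KI at 1 week, against -2.83 and -2.87 in KI at birth, and at 0.80 and 0.71 in WT at 1 week, against -2.65 and -2.27 in WT at birth. Its rise of 12.6-fold in KI and 9.32-fold in WT (log2 +3.66 ± 0.18 and +3.22 ± 0.18, limma adjusted p = 0.000326 and 0.000366) was larger than that of any collagen chain. The cross-linking oxidase Loxl1 rose by 1.01 ± 0.12 in KI and 1.14 ± 0.12 in WT, and the procollagen N-proteinase Adamts2 by 1.16 ± 0.16 and 1.07 ± 0.16. In WT Adamts3, Bmp1, Loxl2 and Loxl3 were called higher as well. Adamts3 was at -3.74 and -4.02 in WT at 1 week, against -5.67 and -4.88 in WT at birth. Its value on WT birth replicate 1 lay below the lowest signal well above background on that array, so its WT rise starts near background.

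Of 10 receptor and uptake genes 2 rose and 1 fell in KI, and 4 rose and 1 fell in WT. Beside them, 10.6% of all genes were called in KI and 19.0% in WT. Of 9 tested in the scanner-file record 3 rose and 1 fell in each genotype, beside 15.3% of all genes in KI and 12.7% in WT. Itga11, an integrin subunit for fibrillar collagen, was at -0.49 and -0.63 in KI at 1 week, against -2.19 and -1.98 in KI at birth, and at -1.21 and -1.04 in WT at 1 week, against -2.47 and -2.50 in WT at birth, a rise of 1.52 ± 0.14 in KI and 1.36 ± 0.14 in WT. The 2 discoidin domain receptors, tyrosine kinases that bind collagen, moved in opposite directions. Ddr2, the form of fibroblasts, rose by 0.91 ± 0.16 in KI and 1.34 ± 0.16 in WT, and Ddr1, the form typical of epithelium, fell by 1.14 ± 0.18 in KI and by 1.35 ± 0.18 in WT.

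Of 22 genes for modification and folding of chains inside the cell none was called in KI (limma, 5 at an unadjusted p under 0.05), beside 10.6% of all genes, and in WT 2 rose and 2 fell, beside 19.0%. By the scanner-file record 1 rose and 1 fell in KI, beside 15.3% of all genes called, and 1 rose and 2 fell in WT, beside 12.7%. P3h3, of the prolyl 3-hydroxylase family, was at 1.44 and 1.33 in KI at 1 week, against 1.02 and 0.98 in KI at birth, and it rose by 0.52 ± 0.12 in WT (limma adjusted p = 0.0253). P3h2, of the same family, fell by 1.35 ± 0.21 in WT (limma adjusted p = 0.00772), as did P4ha3, a prolyl 4-hydroxylase subunit, by 1.13 ± 0.25 (adjusted p = 0.0249). The medians of the 22 were +0.01 in KI and +0.08 in WT.

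**Figure D3:**
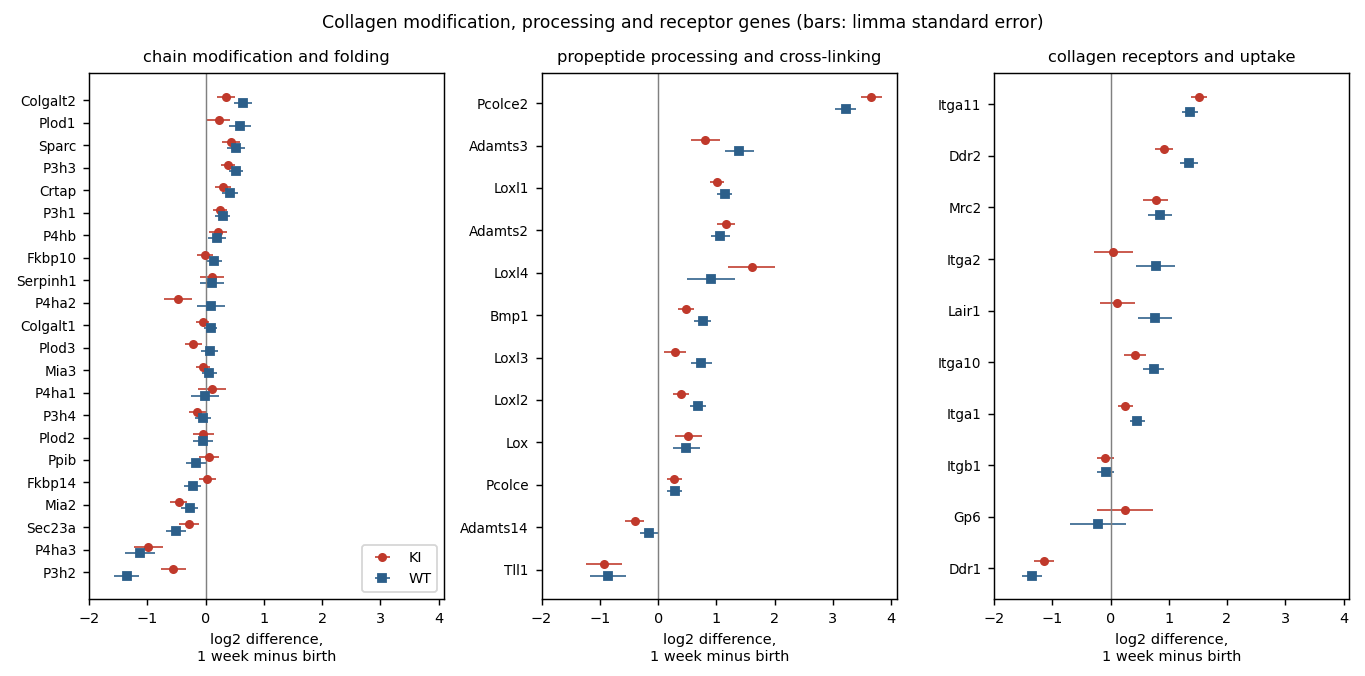
Log2 difference, 1 week minus birth (x axis), for tested genes of chain modification and folding, of propeptide processing and cross-linking, and of collagen receptors, in KI (red circles) and WT (blue squares) with limma standard errors. Pcolce2 lies farthest right at +3.66 and +3.22, and Ddr1 lies left of 0 in the receptor panel.

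Markers of collagen-making and other cells were read in the same comparison. The marker counts stand beside 10.6% of all genes called in KI and 19.0% in WT. In the scanner-file record these shares were 15.3% and 12.7%. Of 10 fibroblast markers, whose summed level was given above, Dcn, Dpt, Lum, Mfap5, Pi16 and Thy1 rose in both genotypes, whereas Pdgfra had +0.31 in KI and +0.36 in WT and was not called, and Tcf21 fell in WT. The median of the list was +1.06 in KI and +1.00 in WT. These 6 were called in both genotypes in the scanner-file record too, and Tcf21 was not. Of 8 endothelial markers 1 was called higher in KI and 4 in WT, and in the scanner-file record 4 in KI and 1 in WT. Of 8 mural (smooth muscle and pericyte) markers 2 rose and 2 fell in KI and 3 rose and 1 fell in WT, and in the scanner-file record 4 rose and 1 fell in KI and 2 rose and 1 fell in WT. Of 6 Schwann and nerve markers 2 rose in each genotype in both records, with Cdh19 below background on all arrays. Of 7 macrophage markers 2 rose in KI and 3 in WT, against 0 and 4 in the scanner-file record.

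The 7 adipocyte markers had a median difference of +3.23 in KI and +1.84 in WT, with 0 called in KI and 1 in WT. The medians became +4.15 and +0.91 in the scanner-file record, with 4 called in KI and 1 in WT. Over all genes 10.6% were called in KI and 19.0% in WT, and 15.3% and 12.7% in the scanner-file record. Their summed level was 4.87 to 4.97 in KI and 4.68 to 5.17 in WT at 1 week, against 4.26 to 4.41 in KI and 4.04 to 4.26 in WT at birth. The part of these cells in the collagen changes was not tested.

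KI against WT at birth asked whether the deletion had altered collagen transcripts in the newborn ventricle. No chain was called of 40 (limma), against 0.0381% of all genes tested. At an unadjusted p under 0.05, 2 chains passed (Col11a1 and Col5a2), 5% of 40 beside 4.71% of all genes. Among the 35 chains well above background on all 8 arrays the differences ran from -0.58 to +0.45 with a median of -0.02, and 17 were positive. The interval of the difference, at 95% confidence, was -0.43 to 0.54 for Col1a1, -0.20 to 0.50 for Col1a2 and -0.49 to 0.49 for Col3a1.

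Col11a1 was higher in KI at birth (0.17 and 0.25) than in WT at birth (-0.22 and -0.27) without overlap, a difference of +0.45 ± 0.13 (limma adjusted p = 0.702). Col5a2 had 0.47 and 0.19 in KI, against 0.74 and 0.75 in WT, a difference of -0.42 ± 0.13 (limma adjusted p = 0.803). Col8a1 had +0.31 ± 0.14, Col6a2 +0.32 ± 0.15, Col18a1 -0.26 ± 0.13 and Col25a1 -0.58 ± 0.30. In each of these 6 chains the KI and WT arrays did not overlap, as for 18 of the 40 (8 higher, 10 lower in KI), beside 16.7% and 15.2% of all genes.

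At 1 week no chain was called between KI and WT in the value-table record (limma, against 0.0508% of all genes) or in the scanner-file record (against 0.00635%). At an unadjusted p under 0.05, 6 chains passed in each record, beside 7.06% and 9.87% of all genes. The 6 of the value-table record were Col11a1, Col18a1, Col8a1, Col23a1, Col15a1 and Col9a2, and the 6 of the scanner-file record were Col24a1, Col2a1, Col1a1, Col4a6, Col3a1 and Col8a2, with no chain in common. Among the 35 chains above background on all arrays the differences ran from -0.76 to +0.77 with a median of -0.04 and 16 positive in the value-table record, and from -0.24 to +0.71 with a median of +0.13 and 23 positive in the scanner-file record. For the main fibrils the 95% interval was -0.44 to 0.53 for Col1a1, -0.55 to 0.14 for Col1a2 and -0.55 to 0.43 for Col3a1 in the value-table record. The scanner-file record gave 0.08 to 0.72 for Col1a1, with a difference of +0.40, -0.36 to 0.41 for Col1a2, with +0.02, and 0.04 to 0.73 for Col3a1, with +0.39. Of the 11 fibrillar chains 4 were positive in the value-table record and 9 in the scanner-file record. Without array B 1 chain was called lower, Col6a6, whose KI level then rests on array C alone, where it was not well above background (-5.43, against -3.18 and -3.18 in WT).

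Col11a1 had the smallest p at both ages. At 1 week it was at -1.10 and -0.88 in KI, against -1.80 and -1.71 in WT, without overlap, a difference of +0.77 ± 0.13 (limma adjusted p = 0.240). The second probe, above background on 5 of 8 arrays, gave +0.87 at 1 week and +0.94 at birth. In the scanner-file record the 1-week difference was +0.16 ± 0.32, since arrays C and B, which stood at -0.88 and -1.10, then fall in different groups.

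Col8a1 was at 2.55 and 2.36 in KI, against 2.02 and 2.02 in WT, a difference of +0.43 ± 0.14 that became -0.10 ± 0.21 in the scanner-file record. Col18a1 was at 3.38 and 3.64 in KI, against 3.92 and 4.02 in WT, with -0.46 ± 0.13 that became +0.17 ± 0.21. Col15a1 had -0.76 ± 0.32, which became +0.07 ± 0.43, and its second probe gave -0.04 in the value-table record. Col23a1 had -0.69 ± 0.24 and Col9a2, a type IX chain, +0.34 ± 0.14, and these became -0.12 ± 0.36 and +0.14 ± 0.18. For these 5 chains the KI and WT arrays were apart in the value-table record and overlapped in the scanner-file record. Non-overlap was seen for 16 of 40 chains in the value-table record (8 each way), beside 19.8% higher and 18.0% lower over all genes. It was seen for 12 chains higher and 4 lower in the scanner-file record, beside 20.2% and 19.9%. In 3 chains, 7.5% of 40, the arrays did not overlap at either age and stood in opposite order at 1 week and at birth, beside 5.34% of all genes.

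**Figure D4:**
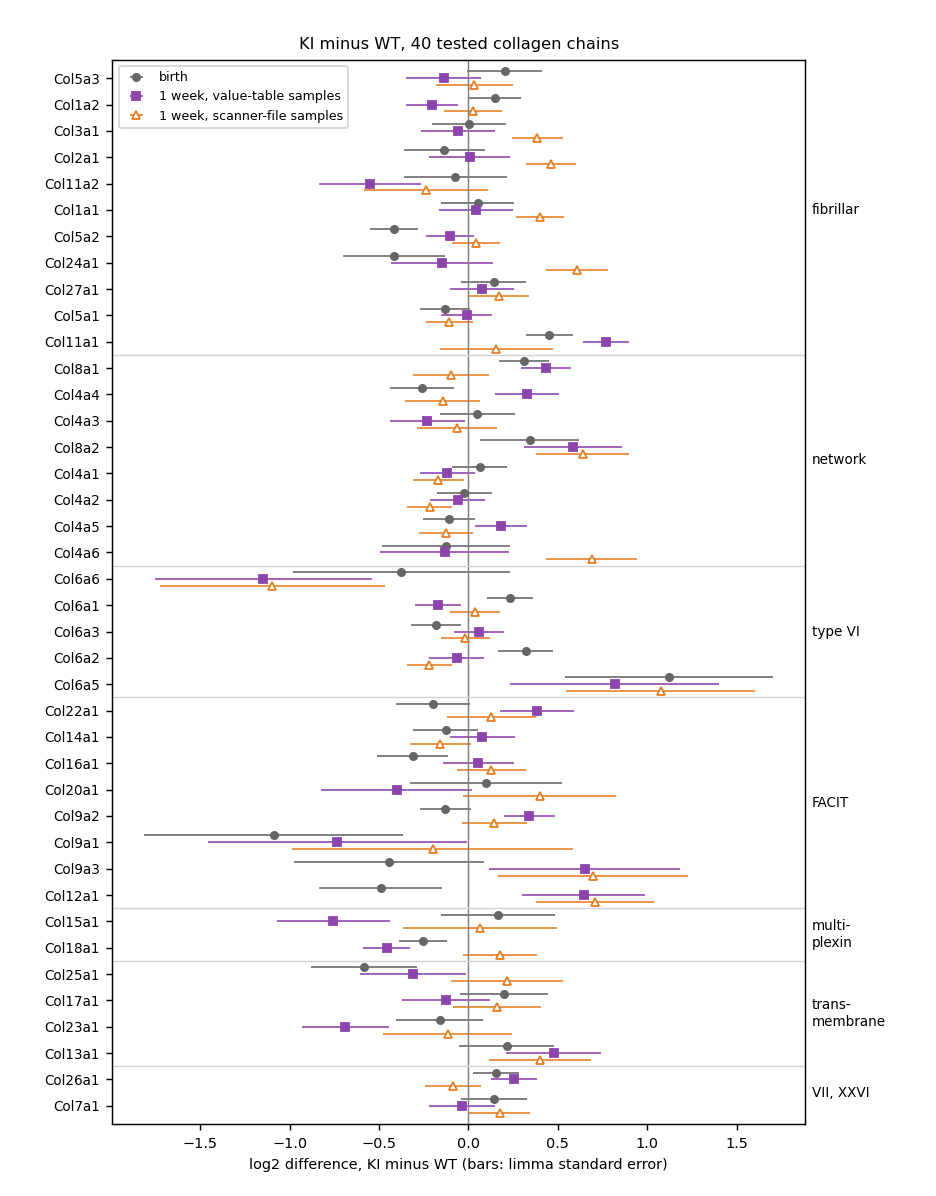
Log2 difference, KI minus WT (x axis), for the 40 tested chains at birth (grey circles) and at 1 week by the value-table samples (purple squares) and the scanner-file samples (open orange triangles); bars are limma standard errors. Col11a1 lies at +0.45, +0.77 and +0.16, and the 1-week values of Col8a1, Col15a1 and Col18a1 change sign between the records.

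The genotype by age term, which tests whether the change with age differed between KI and WT, called 0 of 40 chains (limma), against 0.00635% of all genes. At an unadjusted p under 0.05 none passed, beside 4.85% of all genes, and 5 did in the scanner-file record, beside 6.29%. The smallest p-values were for Col9a2 (+0.47 ± 0.20), Col12a1 (+1.14 ± 0.49) and Col4a4 (+0.59 ± 0.25) upward, and for Col6a1 (-0.40 ± 0.18), Col15a1 (-0.92 ± 0.45) and Col6a2 (-0.39 ± 0.22) downward, all with a limma adjusted p of 0.888. Second probes gave the opposite sign for Col12a1 (-0.19, above background on 6 arrays) and for Col15a1 (+0.25, above background on all 8). No gene of the pathway lists was called between the genotypes. Itga11 had the smallest p of these genes at 1 week, with +0.56 (limma adjusted p = 0.478), and it stood at +0.39 at birth (adjusted p = 0.878). Beside the 1-week genotype values, 7 of 7 cell division, 0 of 8 endothelial and 3 of 10 fibroblast markers were positive in KI minus WT in the value-table record, whereas 4 of 7, 7 of 8 and 9 of 10 were positive in the scanner-file record. These are counts of signs only, and no endothelial or fibroblast marker was called between the genotypes at 1 week in either record (limma). The median difference over all genes tested was +0.03 in the value-table record. The part of these markers in the collagen values was not tested.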

How the data were processed

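Ventricular RNA was measured on 8 one-colour (Cy3) Agilent arrays. Per the labels' protocols, each sample combined 3 ventricles, with TRIzol extraction and 100 ng of RNA for labelling. The deposited scanner files held each spot's processed signal as intensity, background-corrected by the authors' scanner software (Feature Extraction 11.0.1.1 with build mm9 per the file headers, 9.1 per the submitters' processing notes), with no normalization between arrays. The deposited value table held the same intensity averaged over spots. The flags for background, saturation and outlier spots (other) were coded 0 and 1, per the file headers. Each value-table column equalled 1 scanner file in 100% of 1-spot probes (relative tolerance 0.0001), which identified the array; at 1 week 3 of 4 columns carried another sample's name than the file, hence both records. Expression played no part in placing an array.

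Spots of a probe were averaged without outliers, log2 transformed and set relative to the array's 75th percentile of non-control probes (56605 probes, 15 dropped, none of a collagen). RefSeq accessions (GRCm38.p6) named 32988 probes of 22909 genes. The brightest probe stood for a gene, and 22 collagen genes had several. A gene was tested where some group had it well above background on both its arrays (15744 genes; 15757 in the scanner-file record). Linear models with 4 group means were fitted over all 8 arrays (limma 3.58.1, R 4.3.3, 4 residual degrees of freedom) with Benjamini-Hochberg adjustment in each of 5 comparisons. At 2 against 2 the smallest two-sided exact permutation p is 0.333. limma's model was tested on simulated data.

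Replicate numbers are shared between groups by label only; the correlation of replicate deviations between groups was -0.14 to 0.29, so samples were not treated as pairs. Named genes were Col1a1, Col1a2, Col3a1, Col5a1 and Col5a2, up to 6 chains per direction in each age comparison, up to 3 per direction in the others, chains whose call differs between the records, and up to 3 genes of each pathway list; other chains are given by range. The members and gene lists were chosen with earlier results of these data known. Alternatives covered the record, background correction, normalization, filter, probes, the replicate block, the samples fitted, the spread model and each array left out.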

Additional observations from a re-analysis of the deposited data

Results flagged for a closer look

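In 3 chains the KI and WT arrays did not overlap at either age and stood in opposite order at 1 week and at birth, 7.5% of the 40 tested, beside 5.34% of all genes tested. Col6a1 was -0.17 at 1 week and +0.23 at birth (KI minus WT, log2), Col6a3 was +0.0608 and -0.18, and Col9a2 was +0.34 and -0.13. The difference was tested as the genotype by age term in limma, which called none of them (limma adjusted p = 0.888 for each). In the scanner-file record these 1-week values were +0.04, -0.02 and +0.14, with the arrays overlapping. A second Col6a3 probe, above background on all 8 arrays, gave -0.48 at 1 week and -0.08 at birth in the value-table record. Its KI and WT arrays overlapped at birth, so it did not show the opposite order.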

How the results depend on the processing

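The number of collagen chains called with age stayed within 1.5 times the reported 15 under 18 alternatives except where single arrays were left out. With 1 array left out it ranged from 4 to 19 in KI and from 6 to 19 in WT; the other settings gave 10 to 18 in KI and 10 to 19 in WT. For KI it was 4 and 7 without KI 1-week replicates 1 and 2 and 5 without KI birth replicate 2, and for WT 6 and 7 without WT birth replicates 1 and 2. Under all settings Col11a1, Col23a1, Col4a4 and Col8a1 were called in KI, and Col15a1, Col1a2, Col5a3 and Col8a1 in WT. KI against WT gave 0 at birth under every alternative and 0 to 1 at 1 week with 1 array left out (1 without KI 1-week replicate 1); genotype by age gave 0 throughout. With the replicate block 14 chains were called in KI and 15 in WT, and 0 in the genotype comparisons. The replicate numbers are no pairing by design.

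Scaling to the array median in place of the 75th percentile moved the median of all genes to -0.20 for WT age (from -0.04), +0.11 for KI minus WT at 1 week and +0.17 for genotype by age; higher calls were then 36.4% of all calls for WT age, against 52.8%, and the collagen calls were 9 higher and 3 lower in KI and 9 higher and 5 lower in WT. Of 1126 values of named chains under alternatives, 967 kept direction and side of the threshold, 111 lost and 43 gained a call, and 5 changed sign: Col5a1 in WT age (-0.00095, median scaling), Col25a1 at birth (+0.092, mean of all probes), and at 1 week, with the scanner-file samples, Col15a1 (+0.066), Col18a1 (+0.175) and Col8a1 (-0.099). Apart from the scanner-file samples, which regroup arrays B and D, and the fits with fewer arrays, the cause was not tested. The 4 untested chains and Col4a3, Col6a5, Col6a6, Col9a1 and Col9a3 are limited by signal near background.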
